A study of Mus musculus with 8 samples.

Results

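UDP-glucuronosyltransferases, cytosolic sulfotransferases and carboxylesterases were followed in skin taken whole from FVB/N females, wild-type for *Cd109* or lacking it, with or without the carcinogen DMBA. The genes were taken by symbol (Ugt, Sult or Ces followed by a family number, pseudogenes left out) and read on the brightest probe of each gene. Of 62 such protein-coding genes in the annotation, 53 had a probe among the 21095 genes named on the array: 15 UDP-glucuronosyltransferases, 20 sulfotransferases and 18 carboxylesterases. Of these, 20 were bright enough to be tested. The clearest change was in a carboxylesterase, *Ces2e*, whose signal was about 9.69-fold higher in the 4 DMBA-treated samples than in the 4 untreated ones.

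The first pair of families make the conjugates of phase II metabolism. UDP-glucuronosyltransferases sit in the endoplasmic reticulum and join a sugar, usually glucuronic acid from UDP-glucuronate, to phenols, bilirubin, steroids and drugs. Cytosolic sulfotransferases move sulfate from the donor PAPS to phenols, steroids and cholesterol. Conjugation mostly makes a compound soluble and ready for export, although sulfate esters of hydroxymethyl derivatives of polycyclic hydrocarbons can be reactive towards DNA. Carboxylesterases are serine hydrolases of the endoplasmic reticulum that cleave esters and amides of drugs and neutral lipids. DMBA is a polycyclic aromatic hydrocarbon that is oxidized in skin by cytochrome P450 enzymes before it is conjugated. In skin, cholesterol sulfate made by a sulfotransferase is part of the barrier of the cornified layer.

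The 4 groups were *CD109+/+* and *CD109-/-* skin taken 24 h after DMBA, and untreated skin of either genotype, for which the labels name acetone. Each group had 2 arrays, and all 8 lay on 1 slide. The *CD109-/-* mice carry a germline deletion backcrossed onto FVB/N, and the *CD109+/+* mice were bought as FVB/N, so they were not stated to be littermates. The age of the mice on the arrays and the number of animals per array were not given in the sources used here, so p-values measure only the spread between these samples. The DMBA arrays filled 1 row of the slide and the untreated arrays the other, which means that treatment cannot be told apart from position on the slide. Values are log2 signals, that is log2 of the deposited intensity minus the 75th percentile of its array. A signal is called well above background by the scanner software's own flag. Between 63.6% and 67.0% of the spots on an array carried that flag, and 0 spots were saturated.

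*Cd109*, the deleted gene, was read before any other gene. Its log2 signal was 1.09 and 1.67 on the DMBA-treated *CD109+/+* arrays and -7.85 and -7.52 on the DMBA-treated *CD109-/-* arrays. Without DMBA, the arrays labelled *CD109+/+* gave 2.29 and -6.28, and 1.89 and -7.90 came from those labelled *CD109-/-*. The array labelled untreated *CD109+/+* replicate 2 therefore lacked a *Cd109* signal well above background, and the array labelled untreated *CD109-/-* replicate 1 had one. Every comparison that uses the untreated groups by genotype is given with the labels as deposited and also with these 2 arrays exchanged. The exchange was chosen from the signals, so its p-values are no independent evidence about genotype. The average effect of DMBA has the same fold change under either arrangement.

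Markers of the hair follicle separated the same arrays. Averaged over 10 hair shaft genes, the log2 signal ran from -3.999 to -3.69 on the 4 arrays with *Cd109* and from 1.62 to 6.20 on the 4 without, and that of 12 inner root sheath genes from -2.91 to -2.31 and from 3.04 to 4.997. Adipocyte markers ran the other way, 4.57 to 5.40 with *Cd109* and 3.32 to 4.17 without. Skeletal muscle markers (5.18 to 6.19 against 3.42 to 4.64) and macrophage markers (2.80 to 3.70 against 1.33 to 2.60) did so too. Basal epidermis markers also lay lower without *Cd109* (4.82 to 4.95, against 5.22 to 5.57). By limma, 4 of 7 passed as lower for the genotype average after the exchange, beside 15.8% of all probes. As labelled, 0 passed, beside 0.00271% of probes in either direction. All 7 basal epidermis markers and all 7 fibroblast markers were well above background on every array. In whole skin, fewer cells of a type and less RNA per cell cannot be told apart. The part of these cell types in the results below was not tested.

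**Figure D1:**
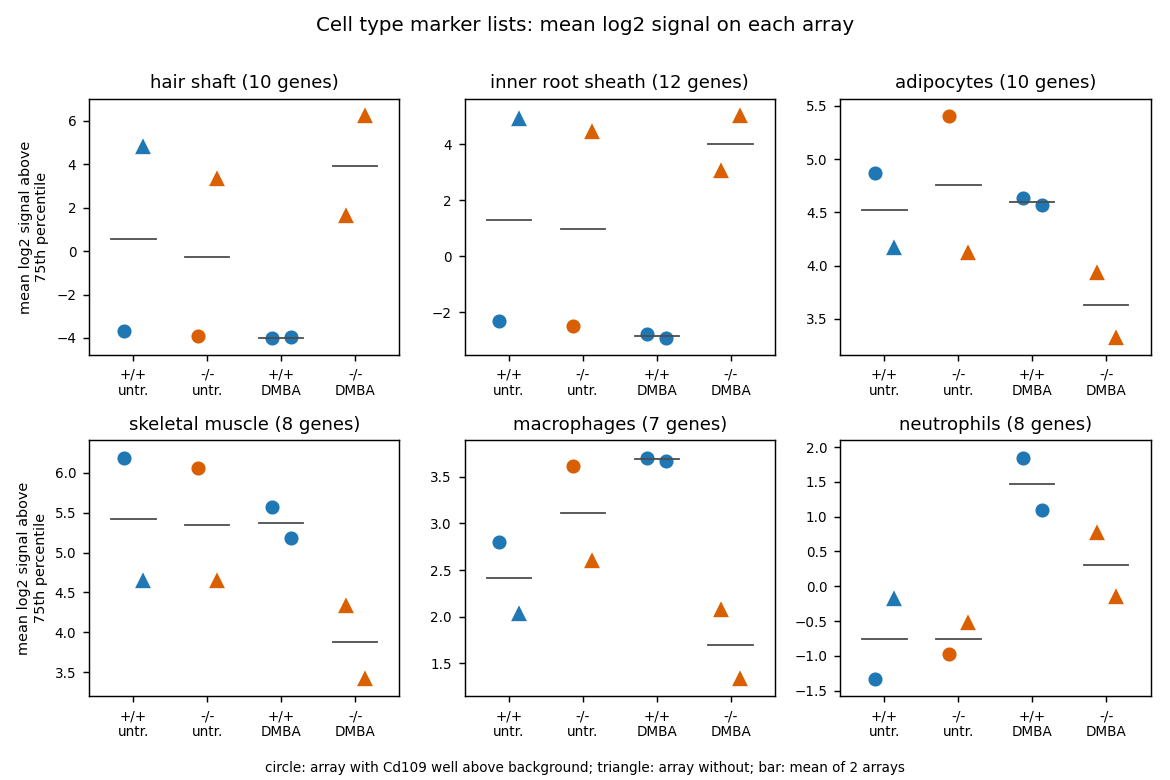
Mean log2 signal of 6 lists of cell type markers (y axis, relative to the 75th percentile of the array) on each of the 8 arrays by labelled group (x axis), blue for *CD109+/+* and orange for *CD109-/-*, with bars at the mean of 2 arrays. Triangles, the 4 arrays without *Cd109* signal, sit above circles for hair shaft (1.62 to 6.20 against -3.999 to -3.69) and below them for adipocytes.

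Of the 53 genes with a probe, 33 were too dim to be tested. All members of Ugt2 that had a probe, namely *Ugt2a1*, *Ugt2a3*, *Ugt2b1*, *Ugt2b5*, *Ugt2b34*, *Ugt2b35*, *Ugt2b36*, *Ugt2b37* and *Ugt2b38*, stayed below the limit for testing, which asked that both arrays of some group be well above background. The same held for *Sult1b1*, *Sult1c1*, *Sult1c2*, *Sult1d1*, *Sult1e1*, *Sult2a1*, *Sult2a2*, *Sult2a3*, *Sult2a4*, *Sult2a6*, *Sult2a7*, *Sult3a1*, *Sult3a2*, *Sult6b1* and *Sult6b2*, and for *Ces1a*, *Ces1b*, *Ces1c*, *Ces1g*, *Ces2a*, *Ces2h*, *Ces3a*, *Ces3b* and *Ces5a*. Of the 33, 25 were well above background on no array and 8 on 1 or 2. No probe was named for *Ugt1a1*, *Ugt1a2*, *Ugt1a5*, *Ugt1a7c*, *Ugt1a8*, *Ugt1a9*, *Ugt2a2*, *Sult2a5* and *Ces1h*. The tested genes were 6 UDP-glucuronosyltransferases, 5 sulfotransferases and 9 carboxylesterases, and 16 of the 20 were well above background on all 8 arrays. Hepatocyte markers, as a check on the source of these liver-rich families, had a mean log2 signal from -2.29 to -1.04, higher on the arrays with *Cd109* (-1.24 to -1.04) than without (-2.29 to -2.10).

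DMBA raised 1 of the 20 genes, *Ces2e*, when its effect was averaged over genotypes. The counts come from limma at a Benjamini-Hochberg adjusted p under 0.05 over 36921 probes, of which 0.0244% passed in that direction. An unadjusted p under 0.05 was found for 7 of the 20, and the median log2 fold change was 0.33 against 0.04 over all probes. The share of all probes at an unadjusted p under 0.05 is not given here or below. Counts of genes at that threshold therefore cannot be set against the shares of probes, which are at an adjusted p. With the 2 arrays exchanged, 2 genes passed as higher (*Ces2e* and *Ces2g*) and 1 as lower (*Ces1f*), beside 1.06% and 0.439% of 37147 probes. Arrays of the 2 treatments did not overlap at all in 5 genes. *Ces2e*, *Ces2f* and *Ugt3a1* were higher on all 4 DMBA arrays than on any untreated array, as were 3.82% of probes. Of these genes, *Ces2f* met the limit for testing only through the DMBA groups. *Ces1f* and *Sult5a1* were lower on all 4, as were 2.41% of probes.

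**Figure D2:**
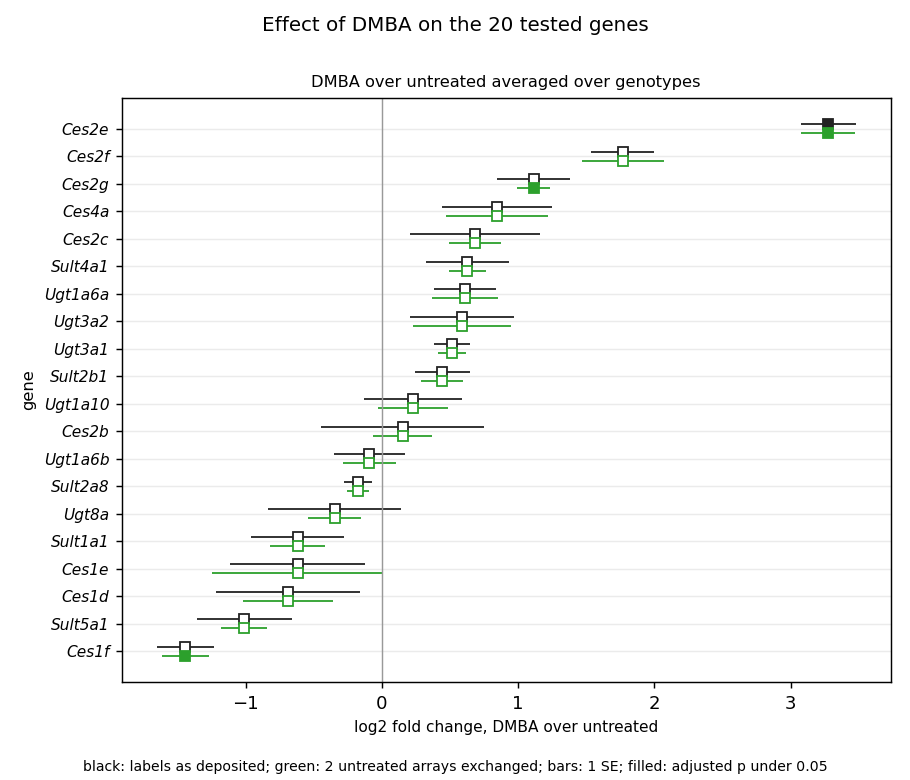
Log2 fold change of DMBA over untreated skin, averaged over genotypes (x axis), for the 20 tested genes (y axis), with bars of 1 SE and filled squares where the adjusted p was under 0.05, black for the labels as deposited and green with 2 arrays exchanged. The estimates are the same in both arrangements, and *Ces2e* stands at 3.28 and *Ces1f* at -1.44.

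Within a genotype, *Ces2e* passed in *CD109+/+* skin alone, where it was the 1 gene to do so with the labels as deposited, beside 0.146% of probes higher. In *CD109-/-* skin 0 genes and 0% of probes passed by limma. At an unadjusted p under 0.05, for which no share of all probes is given, it was 7 genes. The t-test of the study's methods called 3 before adjustment and 0 after. After the exchange, 3 genes passed as higher in *CD109+/+* skin (*Ces2e*, *Ces2f*, *Ces2g*) beside 2.37% of probes, and 2 as lower (*Ces1f*, *Sult5a1*) beside 1.14%. *Ces2f* was tested only because it was well above background in the DMBA groups. In *CD109-/-* skin it was then 0 genes and 0.0135% of probes, with 9 genes at an unadjusted p under 0.05. The effect of DMBA differed between genotypes in 0 genes by limma, beside 0% of probes as labelled and 0.0269% after the exchange. At an unadjusted p under 0.05 that difference held in 0 and 3 genes, and the methods' analysis of variance called 0 before and after adjustment with the labels as deposited.

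The largest average effects of DMBA, by size of the estimate, were those of *Ces2e* and *Ces2f*. *Ces2e* is a carboxylesterase of the Ces2 group, whose members hydrolyse drug esters in gut and liver. Its log2 signal was -0.41 and -0.03 on the DMBA-treated *CD109+/+* arrays and 0.49 and -0.23 on the *CD109-/-* ones, against -3.23 and -3.15 (labelled untreated *CD109+/+*) and -3.58 and -3.33 (labelled untreated *CD109-/-*). The lowest DMBA array, at -0.41, was far above the highest untreated array, at -3.15, while the genotypes overlapped within DMBA-treated skin. The log2 fold change was 3.28 (SE 0.20; limma, adjusted p = 0.0331) on average, 2.97 (SE 0.28; adjusted p = 0.0397) in *CD109+/+* and 3.58 (SE 0.28; adjusted p = 0.168) in *CD109-/-* skin. The p of 1.82e-05 in *CD109-/-* skin missed adjustment over all probes. The call on the average was lost when any 1 of the 8 arrays was left out (log2 fold change 3.10 to 3.46, adjusted p 0.0555 to 0.231), and normexp background correction lowered the estimate to 2.27 (adjusted p = 0.0674). A further probe for *Ces2e* was well above background on no array.

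*Ces2f*, the next gene along the chromosome, was dim. Its log2 signal was -3.04 and -3.50 on the DMBA-treated *CD109+/+* arrays, -4.45 and -4.55 on the *CD109-/-* ones, -4.95 and -5.66 where the label was untreated *CD109+/+*, and -6.29 and -5.73 where it was untreated *CD109-/-*. It was well above background on all 4 DMBA arrays and on 1 of the 4 untreated ones. It thus met the limit for testing only through the DMBA groups, where it was high. A call of it as higher with DMBA is therefore no independent support. The average log2 fold change of 1.77 (SE 0.23; limma, adjusted p = 0.117) did not pass, and it is no measured fold, since 3 of the 4 untreated values are background-level readings. In *CD109-/-* skin, where neither untreated array was above background, DMBA was at least 2.33-fold higher (adjusted p = 0.258). After the exchange the effect in *CD109+/+* skin passed, at 2.35 (SE 0.43; adjusted p = 0.0487), with 1 of the 2 untreated arrays well above background, and it stayed past the threshold in 1 of the 8 fits that left out an array. Normexp correction brought the average down to 0.46.

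*Ces2g* followed in order and was brighter than background everywhere. It gave 1.13 and 1.14 on the DMBA-treated *CD109+/+* arrays, 0.05 and -0.39 on the *CD109-/-* ones, -0.20 and -0.96 where the label was untreated *CD109+/+*, and -0.28 and -1.11 where it was untreated *CD109-/-*. Every array without *Cd109* lay below the array or arrays with *Cd109* of the same treatment. The average effect of DMBA was 1.11 (SE 0.27; limma, adjusted p = 0.263) as labelled, and with the smaller SE of 0.12 after the exchange it passed (adjusted p = 0.0294), which held in 2 of the 8 fits that left out an array.

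*Ces2b* and *Ces2c*, of which *Ces2c* is a neutral lipid hydrolase of liver, did not separate by treatment. *Ces2b* gave -3.50, -2.96, -2.90 and -3.69 on the DMBA arrays (*CD109+/+* replicates 1 and 2, then *CD109-/-*), and -2.49, -4.28, -2.44 and -4.45 on the untreated arrays in the same order. *Ces2c* gave -2.79, -2.34, -1.91 and -2.40 with DMBA and -2.29, -3.53, -2.29 and -4.06 without. In untreated skin both genes were high on the 2 arrays with *Cd109* and low on the 2 without. Their average effects of DMBA were 0.15 (SE 0.60) and 0.68 (SE 0.48), with limma adjusted p of 0.944 and 0.638. Both other probes of *Ces2c* gave the opposite sign, -0.14 and -0.19.

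*Ces2e*, *Ces2f* and *Ces2g* are neighbours on chromosome 8, in a row of 10 carboxylesterase genes that runs *Ces2a*, *Ces2b*, *Ces2c*, *Ces2e*, *Ces2f*, *Ces2g*, *Ces2h*, *Ces3a*, *Ces3b* and *Ces4a*. The 250 bases before their start sites are shown because these are the 3 tested neighbours with the highest average effect of DMBA. They are from RefSeq, build GRCm38.p6, plus strand, at chr8:104926010-104926259, chr8:104947106-104947355 and chr8:104961468-104961717. Capitals mark a run of 9 bases that all 3 hold, 80, 92 and 117 bases before the start site, chosen after the sequences were compared.
*Ces2e*: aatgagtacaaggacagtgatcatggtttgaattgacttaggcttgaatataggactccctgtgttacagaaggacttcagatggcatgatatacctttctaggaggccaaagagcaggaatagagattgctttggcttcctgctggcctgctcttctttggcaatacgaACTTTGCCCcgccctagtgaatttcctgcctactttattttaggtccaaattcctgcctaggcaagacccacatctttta
*Ces2f*: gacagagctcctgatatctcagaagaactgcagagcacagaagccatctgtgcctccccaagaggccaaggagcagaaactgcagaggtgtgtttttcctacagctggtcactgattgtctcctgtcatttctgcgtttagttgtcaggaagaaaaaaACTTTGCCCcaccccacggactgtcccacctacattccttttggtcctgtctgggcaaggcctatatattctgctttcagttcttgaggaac
*Ces2g*: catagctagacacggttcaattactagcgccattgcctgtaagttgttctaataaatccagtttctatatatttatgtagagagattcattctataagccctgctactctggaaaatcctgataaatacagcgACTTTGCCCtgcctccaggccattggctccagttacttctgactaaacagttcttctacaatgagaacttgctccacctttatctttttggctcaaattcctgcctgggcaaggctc
The run ACTTTGCCC is in 73 of 32851 promoters of this length (0.222%), counted on either strand, and 4 of them belong to genes described here, the fourth being *Ces2a*, which was well above background on no array. The genes belong to the same Ces2 group, and whether a probe for 1 of them also catches RNA of another was not tested. Of 47 promoters of these families, 4 held the Ah receptor core GCGTG on either strand (28.2% of all promoters), 0 the antioxidant response core TGACNNNGC (10.2%) and 3 the AP-1 site TGAGTCA (4.46%). None of the 3 promoters printed held any of these motifs in this window.

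The Ces1 group and *Ces4a* gave smaller average effects than *Ces2e* and *Ces2f*, although that of *Ces1f* was larger in size than that of *Ces2g* (1.11). *Ces1f*, a triacylglycerol hydrolase, had the most negative average effect of DMBA of the 20. It gave -3.03 and -2.55 on the DMBA-treated *CD109+/+* arrays, -2.64 and -3.13 on the *CD109-/-* ones, -1.13 and -1.68 where the label was untreated *CD109+/+*, and -1.30 and -1.47 where it was untreated *CD109-/-*. No DMBA array reached any untreated one. The average log2 fold change was -1.44 (SE 0.21; limma, adjusted p = 0.128), and after the exchange it passed with SE 0.17 (adjusted p = 0.0321), in 1 of the 8 fits that left out an array. Adipocyte markers, a cell type known for such hydrolases, ran from 3.32 to 4.63 on the DMBA arrays and from 4.11 to 5.40 on the untreated ones, and 0 of 10 passed for the average effect of DMBA (median -0.51).

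*Ces1d*, the main triacylglycerol hydrolase of mouse liver and fat, gave 0.79, 1.57, 1.75 and 0.43 on the DMBA arrays (*CD109+/+* replicates 1 and 2, then *CD109-/-*) and 2.36, 1.18, 2.69 and 1.06 on the untreated arrays in that order. *Ces4a* gave 3.05, 3.50, 3.69 and 2.25 with DMBA and 2.75, 2.37, 2.55 and 1.45 without. For both genes the treatments overlapped, with average log2 fold changes of -0.69 (SE 0.53; limma, adjusted p = 0.67) and 0.84 (SE 0.41; adjusted p = 0.505). *Ces1e*, which holds beta-glucuronidase in the endoplasmic reticulum, ranged from -5.73 to -2.76 and was well above background on 7 arrays.

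**Figure D3:**
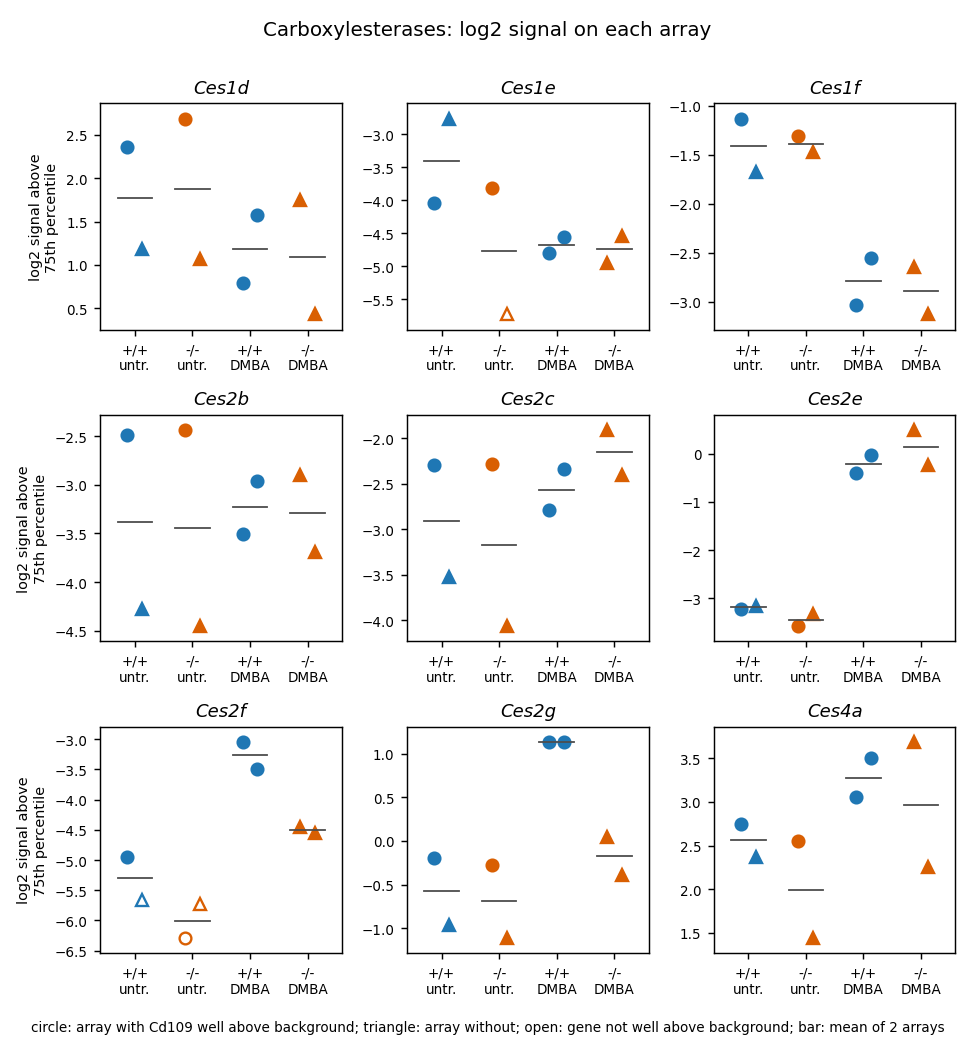
Log2 signal of the 9 tested carboxylesterases (y axis, relative to the 75th percentile of the array, own scale in each panel) on the 8 arrays by labelled group (x axis), blue for *CD109+/+* and orange for *CD109-/-*, circles for arrays with *Cd109* signal and triangles for those without, bars at the mean of 2 arrays. *Ces2e* is at -0.41 to 0.49 with DMBA and at -3.58 to -3.15 without, and untreated *Ces2b* falls into circles at -2.49 and -2.44 and triangles at -4.28 and -4.45.

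Among the UDP-glucuronosyltransferases, the phenol-conjugating *Ugt1a6a* had the highest difference between genotypes after DMBA, towards *CD109-/-* skin. Its log2 signal was -3.73 and -4.23 on the DMBA-treated *CD109+/+* arrays and -2.83 and -2.19 on the *CD109-/-* ones, against -4.26 and -3.98 (labelled untreated *CD109+/+*) and -3.86 and -3.33 (labelled untreated *CD109-/-*). The 2 DMBA-treated *CD109-/-* arrays were above all other arrays. The difference between genotypes after DMBA was 1.47 (SE 0.33; limma, adjusted p = 0.105) and missed the threshold as labelled, while after the exchange it passed (adjusted p = 0.0381), in 1 of the 8 fits that left out an array. Normexp correction lowered it to 0.45. The effect of DMBA averaged 0.61 (SE 0.23; adjusted p = 0.401).

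*Ugt1a6b* and *Ugt1a10* come from the same locus. They share their last exons with *Ugt1a6a* and differ in the first, so a probe may read more than 1 of them, and where the probes lie was not given in the sources used here. *Ugt1a6b* gave 5.81, 5.87, 5.98 and 5.14 on the DMBA arrays (*CD109+/+* replicates 1 and 2, then *CD109-/-*) and 6.03, 5.62, 6.12 and 5.41 on the untreated arrays in that order, with an average effect of DMBA of -0.09 (SE 0.26; limma, adjusted p = 0.921). Between genotypes after DMBA the probes of *Ugt1a6b* differed, with -0.28 (SE 0.37; adjusted p = 0.636) on the brightest and -0.97 (adjusted p = 0.105) on the other. *Ugt1a10* gave -0.12, -0.08, -0.73 and -1.90 with DMBA and -0.67, -1.31, -0.37 and -1.39 without. All 4 arrays without *Cd109* were below all 4 with it. Its difference between genotypes after DMBA was -1.22 (SE 0.51; adjusted p = 0.1997), and a further probe gave -1.44 (adjusted p = 0.149). Leaving out 1 array moved the first value to between -1.80 and -0.63.

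*Ugt8a*, which makes galactosylceramide, lay close to background. It gave -3.99, -4.75, -5.49 and -5.44 on the DMBA arrays (*CD109+/+* replicates 1 and 2, then *CD109-/-*) and -3.59, -5.39, -4.02 and -5.28 on the untreated arrays in that order. It too was lower on all 4 arrays without *Cd109*. With the 2 arrays exchanged, it met the limit for testing only through the *CD109+/+* groups, where it was high. After DMBA, *CD109-/-* skin was at least 2.09-fold lower, since neither *CD109-/-* array was well above background, and this passed after the exchange (adjusted p = 0.0445) but not as labelled (limma, adjusted p = 0.336), and in 0 of the 8 fits that left out an array from the exchanged arrangement. *Ugt3a1* and *Ugt3a2*, which take other sugars than glucuronic acid, were dim as well. *Ugt3a1* gave -3.13, -3.38, -3.35 and -3.38 with DMBA and -3.81, -3.90, -3.62 and -3.97 without, an average of 0.51 (SE 0.13; adjusted p = 0.282). *Ugt3a2* gave -4.02, -5.34, -4.51 and -5.53 with DMBA and -5.45, -5.58, -5.05 and -5.67 without (0.59, SE 0.38; adjusted p = 0.61). Only 4 of these 8 values were well above background, so 0.59 is no measured fold. The treatments were apart in *Ugt3a1* and overlapped in *Ugt3a2*.

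The sulfotransferases showed no call with the labels as deposited in any of the 7 comparisons. *Sult2b1*, the cholesterol sulfotransferase of epidermis, gave 3.59, 3.66, 3.87 and 3.99 on the DMBA arrays (*CD109+/+* replicates 1 and 2, then *CD109-/-*) and 3.26, 3.87, 2.82 and 3.40 on the untreated arrays in that order. Its treatments overlapped, with an average effect of DMBA of 0.44 (SE 0.20; limma, adjusted p = 0.484). After DMBA the genotypes differed by 0.31 (SE 0.29; adjusted p = 0.503), a sign that turned to -0.02 when arrays were centred on their median, which moved the median over all probes from 0.07 to -0.26. *Sult1a1*, the phenol sulfotransferase, gave 3.07, 2.82, 2.48 and 1.89 with DMBA and 3.42, 2.49, 3.96 and 2.85 without. Within each treatment, the arrays without *Cd109* were below those with it.

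*Sult5a1*, a little-studied member, gave 0.03, 0.50, -0.32 and 0.20 on the DMBA arrays (*CD109+/+* replicates 1 and 2, then *CD109-/-*) and 1.55, 0.52, 1.70 and 0.67 on the untreated arrays in that order. All DMBA arrays were lower, the nearest pair by little, and the average was -1.01 (SE 0.35; limma, adjusted p = 0.369). *Sult4a1*, best known from brain, gave -3.14, -2.97, -2.80 and -2.87 with DMBA and -3.80, -3.04, -4.30 and -3.15 without (average 0.63, SE 0.30; adjusted p = 0.508). Its 2 lowest values were on the untreated arrays with *Cd109*. A further probe for *Sult4a1* was well above background on only 1 array and was not tested. *Sult2a8*, a bile acid sulfotransferase of liver, was the flattest of the 20, from 0.02 to 0.42 over all arrays, with 0.02 and 0.15 on the DMBA-treated *CD109+/+* arrays, 0.28 and 0.34 on the *CD109-/-* ones, 0.33 and 0.37 where the label was untreated *CD109+/+*, and 0.35 and 0.42 where it was untreated *CD109-/-*.

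**Figure D4:**
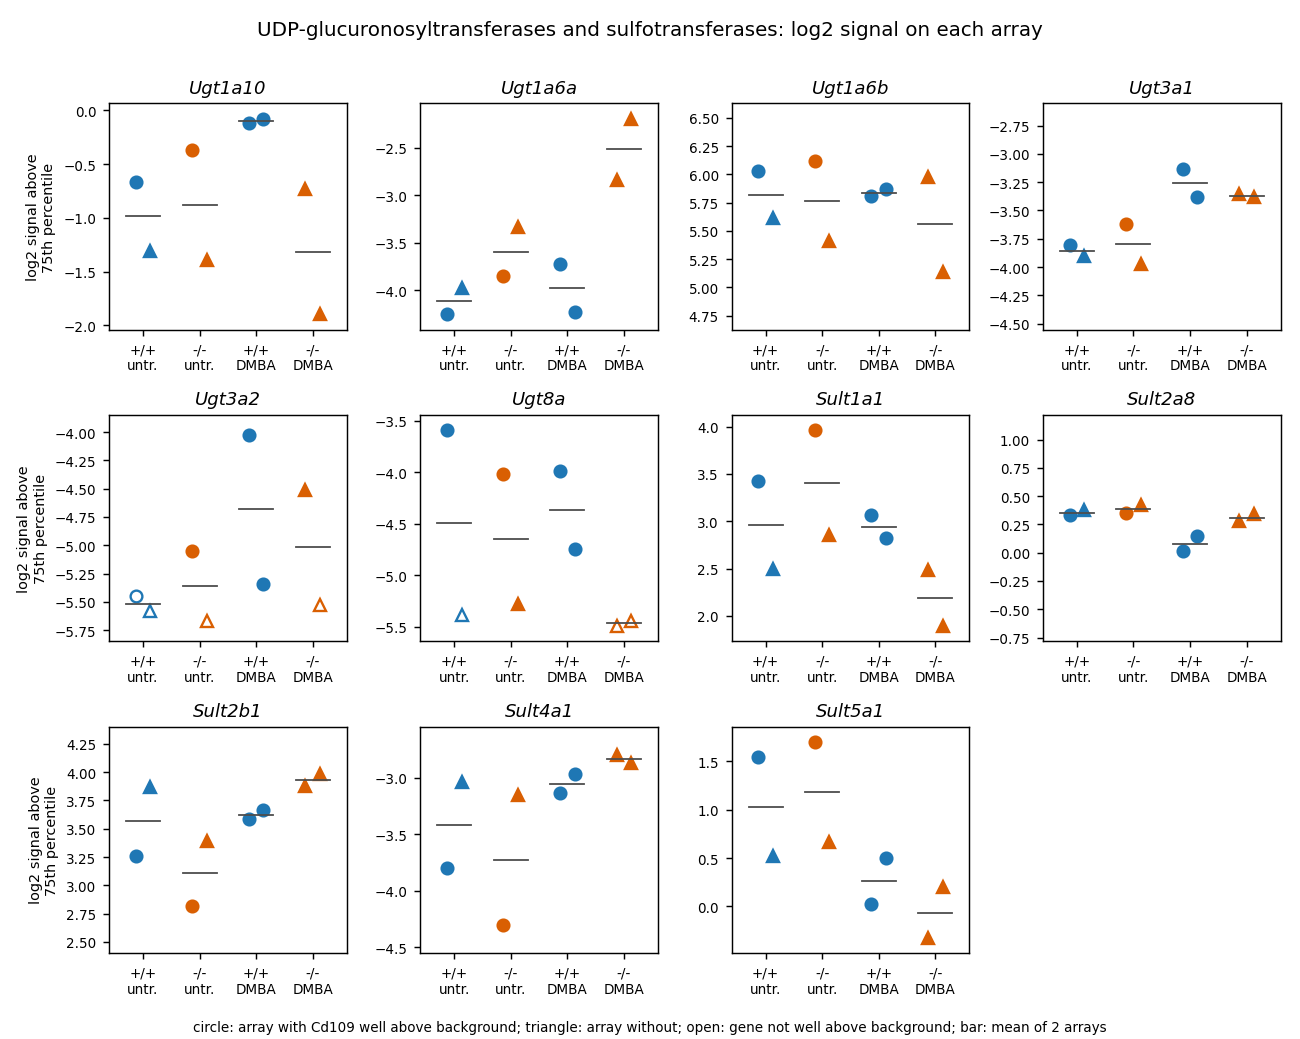
Log2 signal of the 6 tested UDP-glucuronosyltransferases and 5 tested sulfotransferases (y axis, relative to the 75th percentile of the array, own scale in each panel) on the 8 arrays by labelled group (x axis), blue for *CD109+/+* and orange for *CD109-/-*, bars at the mean of 2 arrays. Triangles, the arrays without *Cd109* signal, lie below all circles in *Ugt1a10* and *Ugt8a*, and the 2 DMBA-treated *CD109-/-* arrays of *Ugt1a6a* (-2.83 and -2.19) lie above the rest.

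The difference between genotypes after DMBA does not touch the arrays in doubt, although the spread used to test it does. With the labels as deposited, 0 of the 20 genes passed by limma beside 0.0921% of probes. At an unadjusted p under 0.05 it was 3 genes, *Ugt1a6a* higher and *Ces2f* and *Ces2g* lower in *CD109-/-* skin, and the methods' t-test called 3 before adjustment and 0 after. *Ces2g* stood at -1.30 (SE 0.38; adjusted p = 0.124) and *Ces2f* at -1.23 (SE 0.33; adjusted p = 0.116). The comparisons within a treatment, within a genotype and on average share arrays. With the 2 arrays exchanged the same fold changes had another SE, and *Ugt1a6a* passed as higher beside 11.6% of probes and *Ces2g* (adjusted p = 0.0183) and *Ugt8a* as lower beside 8.47%. *Ces2g* stayed past the threshold in 6 of the 8 fits that then left out an array, and lost it without either DMBA-treated *CD109+/+* array. The remaining genes among the 3 largest per family were *Ces2c* (0.41, SE 0.68), *Sult1a1* (-0.76, SE 0.48) and *Sult5a1* (-0.33, SE 0.49), with adjusted p from 0.341 to 0.712. Leaving out 1 array moved them to 0.16 to 0.65, -1.05 to -0.46 and -0.59 to -0.07 respectively.

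In untreated skin the labels decide the comparison. As labelled, 0 genes passed by limma and 0 reached an unadjusted p under 0.05, beside 0.00542% of probes that passed, and the methods' t-test called 0 before and after adjustment. With the 2 arrays exchanged, *Sult4a1* passed as higher in *CD109-/-* skin (0.95, SE 0.19; adjusted p = 0.0397) beside 4.95% of probes. *Ces2b* (-1.90, SE 0.30; adjusted p = 0.0232), *Ces2c* (-1.51, SE 0.27; adjusted p = 0.0314), *Ugt8a* (-1.52, SE 0.28; adjusted p = 0.0325) and *Ces2g* (-0.79, SE 0.17; adjusted p = 0.0469) passed as lower beside 3.95%. As labelled, *Sult4a1* had the opposite sign, at -0.31 (SE 0.43). Leaving out any of the 4 untreated arrays from the exchanged arrangement ended all 5 of these calls.

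Averaged over treatments, 0 genes passed as labelled by limma beside 0.00271% of probes, while 3 genes had an unadjusted p under 0.05, and the methods' analysis of variance called 3 before adjustment and 0 after. With the exchange this becomes a comparison of the 4 arrays without *Cd109* signal with the 4 that have it, and the hair shaft markers are then at 1.62 to 6.20 against -3.999 to -3.69. *Ugt1a6a* (0.93, SE 0.24) and *Sult4a1* (0.59, SE 0.13) passed as higher beside 15% of probes. *Ces2g* (-1.05, SE 0.12), *Ugt8a* (-1.31, SE 0.20), *Ces2b* (-0.98, SE 0.21), *Sult1a1* (-0.89, SE 0.20), *Sult5a1* (-0.68, SE 0.17) and *Ugt1a10* (-1.02, SE 0.26) passed as lower beside 15.8%. *Ugt8a* was well above background on 1 of the 4 arrays without *Cd109*, so its fold here and in untreated skin rests on background-level readings. After the exchange it met the limit for testing only through the *CD109+/+* groups, where it was high. Its calls as lower, also in the fits that left out an array, are therefore no independent support for a difference. *Ces2g* and *Ugt8a* passed in all 8 fits that left out an array, and each of the other 6 in 1 or 2 of them. In 2 genes, *Ugt1a10* and *Ugt8a*, all 4 arrays without *Cd109* lay below the other 4, as did 14.2% of probes, and in 0 genes above, against 13% of probes.

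**Figure D5:**
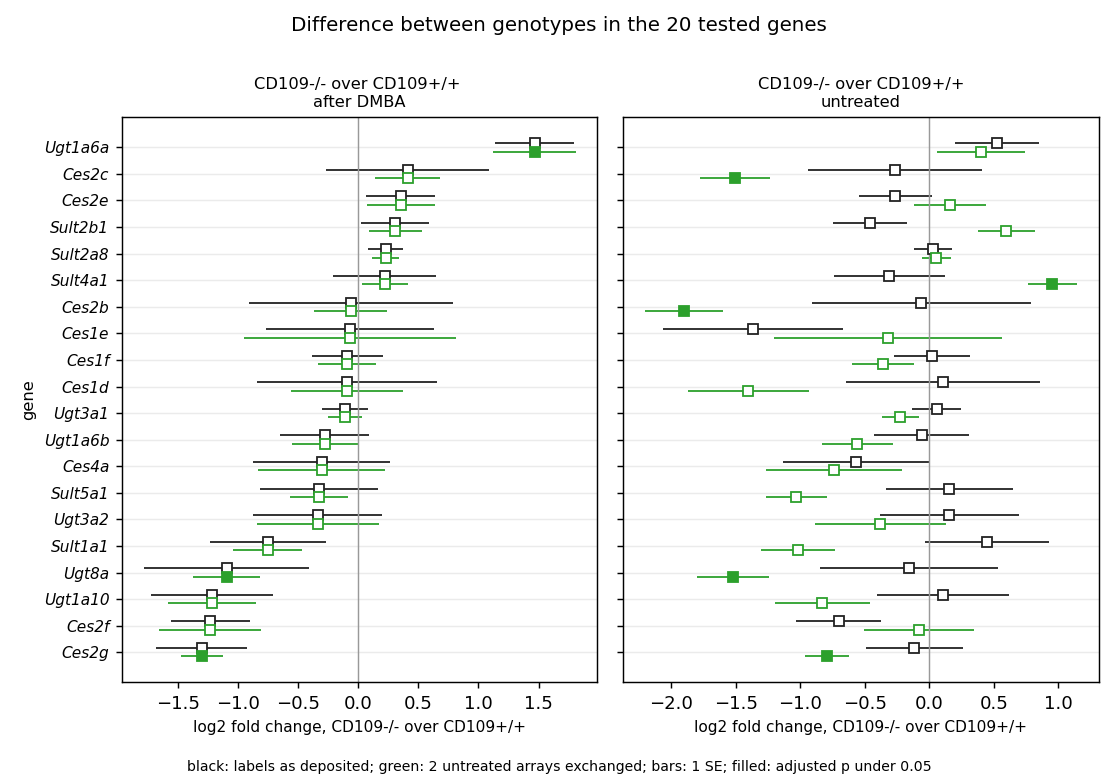
Log2 fold change of *CD109-/-* over *CD109+/+* skin (x axis) after DMBA (left) and untreated (right) for the 20 tested genes (y axis), with bars of 1 SE and filled squares where the adjusted p was under 0.05, black for the labels as deposited and green with 2 arrays exchanged. After DMBA the estimates coincide, from -1.30 for *Ces2g* to 1.47 for *Ugt1a6a*, and in untreated skin they part, as for *Ces2b* (-0.06 and -1.90) and *Sult4a1* (-0.31 and 0.95).

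Genes that serve these enzymes were read from 7 lists: supply of UDP-glucuronate and of PAPS, deconjugation, export of conjugates, other esterases and lipases, regulators, and handling of steroids, retinoids and thyroid hormone. With the labels as deposited, 0 genes of any of these lists passed by limma in any of the 7 comparisons. After DMBA, 3 of 8 UDP-glucuronate genes had an unadjusted p under 0.05, with no share of all probes given at that threshold. The median of the list was -0.59 against 0.07 over all probes. *Slc35d1*, a carrier of UDP-glucuronate into the endoplasmic reticulum, was at 1.18 (SE 0.26; adjusted p = 0.105) and *Slc35d2* at -0.82 (SE 0.18; adjusted p = 0.105). Of the 6 deconjugating genes tested, *Gusb*, the lysosomal beta-glucuronidase, was at -1.42 (SE 0.31; adjusted p = 0.105) and *Arsa*, an arylsulfatase, at -1.20 (SE 0.35; adjusted p = 0.124). Of the 8 PAPS genes tested, 0 had an unadjusted p under 0.05, and the median was -0.01, with *Papss2* at -0.54 (SE 0.38) and *Papss1* at 0.21 (SE 0.18). In the remaining lists the smallest p belonged to *Abcg2* and *Abcc5*, *Esd* and *Lipa*, *Nr1i3* and *Nfe2l2*, and *Srd5a3* and *Srd5a1*.

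With the 2 arrays exchanged, some of these genes passed after DMBA, a comparison in which 11.6% of all probes passed as higher and 8.47% as lower. *Slc35d1* rose, and *Slc35d2*, *Ugdh*, which makes UDP-glucuronate, *Gusb*, *Arsa* and the sulfatase activator *Sumf1* fell in *CD109-/-* skin. Of 13 other esterases and lipases, 0 passed as higher and 5 as lower: *Lipa* (-1.81), *Lipe* (-1.17), *Nceh1* (-1.13), *Pnpla2* (-1.01) and *Esd* (-0.93). These include the lipases of lysosome and fat cell, and the adipocyte list stood at a median of -0.97 with 4 of 10 genes passing as lower. The exporter *Abcg2* (-0.87) and, from the list of steroid, retinoid and thyroid handling, *Srd5a3* (-0.81) also passed as lower. Of 15 regulators tested, the nuclear receptors *Nr1i3* (2.01) and *Vdr* (1.42) passed as higher and *Nfe2l2*, which encodes Nrf2, as lower (-0.83). For the average effect of DMBA, *Ppard* (0.56; adjusted p = 0.042) was the 1 related gene that passed. All p-values here are from limma over all probes.

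In the other exchanged comparisons, *Ppard* also passed for DMBA in *CD109+/+* skin (0.65). In untreated skin, where 4.95% of all probes passed as higher and 3.95% as lower, *Vdr* (1.59) passed as higher in *CD109-/-* skin. *Hk2* (-0.82), *Slc13a4* (-1.53), *Abcg2* (-1.11), *Nceh1* (-0.98), *Ache* (-1.91), *Pon1* (-4.12), *Esr1* (-1.93), *Ppara* (-0.87) and *Aldh1a2* (-2.07) passed as lower. On the average over treatments, where 15% of all probes passed as higher and 15.8% as lower, *Vdr* (1.503) and the thyroid hormone deiodinase *Dio3* (1.80) passed as higher. Most related genes that passed there did so as lower, among them *Pon1* (-3.62), *Lipa* (-1.40), *Aldh1a2* (-1.45), *Esr1* (-1.39), *Ugp2* (-1.16), *Pgm1* (-1.14), *Gusb* (-0.95) and *Nfe2l2* (-0.58). The others were *Arsa*, *Sumf1*, *Arsk*, *Hk2*, *Slc13a4*, *Abcc4*, *Abcg2*, *Ache*, *Esd*, *Lipe*, *Nceh1*, *Pnpla2*, *Pon3*, *Ahrr*, *Nr1h3*, *Pparg*, *Aldh1a1*, *Cyp11a1*, *Dio2* and *Srd5a3*. Neutrophil markers moved with treatment. Their mean log2 signal ran from -0.15 to 1.85 on the DMBA arrays and from -1.34 to -0.19 on the untreated ones. For the average effect of DMBA, 2 of 7 tested passed after the exchange and 0 as labelled. After the exchange, 1.06% of all probes passed there as higher and 0.439% as lower. The part of these cells in the rise of *Ces2e* was not tested.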

How the data were processed

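RNA from whole skin was hybridised to 8 one-colour Agilent mouse arrays, 2 for each of 4 groups. The authors deposited scanner output of Feature Extraction 11.5.1.1, per the file headers, and the processed intensity of each spot was used here, since its background correction had been done by that software. The deposited value table held the same intensity times a constant for each array. Control spots and 223 probes with outlier flags were left out, spots of a probe were averaged, and 55458 probes were kept. Of 29796 probes with a RefSeq accession, 28026 were named. The 75th percentile of each array was subtracted from its log2 intensities.

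A probe was tested where both arrays of some group were well above background, with limma 3.58.1 in R 4.3.3, with a mean for each group over all 8 arrays and Benjamini-Hochberg adjustment over all probes tested. With 2 arrays a group, their number limits precision. The fits were tested on simulated data with the same noise for every probe, which checks the code. It does not measure power or false calls in these data. Genes, lists and tests were chosen with earlier results of these data known. By the rule for named genes, values on every array are given for members that passed in any comparison, the 4 brightest of each family and those with the largest effects after DMBA or of DMBA, which leaves out *Ces1e* alone of the tested members. Of related genes, those that passed and up to 2 a list with the smallest p are named. Groups followed the labels, and the exchange of 2 arrays was an alternative. Other alternatives changed the scaling, background correction, filter, variance estimate, probe choice, replicate block and test, and left out arrays.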

Additional observations from a re-analysis of the deposited data

How the results depend on the processing

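Of 1027 values for 35 gene results under 30 alternatives, 858 kept direction and side of the threshold, 38 lost the call, 88 gained it and 43 turned sign. All 38 lost calls were of *Ces2e*, for DMBA in *CD109+/+* skin or on average, the only gene results called as labelled. The other gene results had no call to lose. With the 2 arrays exchanged, the number of the 20 genes called by limma was 3 after DMBA (0 as labelled), 5 in untreated skin (0), 5 for DMBA in *CD109+/+* skin (1), 3 for its average (1) and 8 for the genotype average (0). For DMBA in *CD109+/+* skin and for its average, the count was 0 without both arrays in doubt, with normexp, with no filter on dim probes, with a filter on all 8 arrays, with the replicate block and with the methods' test after adjustment. It was also 0 in *CD109+/+* skin with only the arrays compared and 0 for the average with trend and robust variance. The methods' test before adjustment called 3 genes after DMBA, 4 for DMBA in *CD109+/+* and 3 in *CD109-/-* skin, 6 for its average and 3 for the genotype average. The share of all probes called by that test before adjustment is not given here. Leaving out 1 array gave 0 genes in all 7 comparisons. Within the exchanged arrangement it gave 0 to 5 after DMBA, 0 to 10 in untreated skin, 0 to 4 for DMBA in *CD109+/+* skin, 0 to 3 for its average and 2 to 11 for the genotype average. A fit of only the arrays compared has no value for averages and for the difference of effects.

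Deviations of same-numbered arrays correlated from -0.08 to 0.73, over 0.1 in 4 of 6 pairs of groups and not in the other 2, so the replicate numbers were not taken to pair the arrays. The 0.73 was between the untreated groups, in both of which replicate 1 had *Cd109* signal and replicate 2 lacked it. The part of that difference in the correlation was not tested. With the replicate block, the calls over all probes went from 68 to 33 for DMBA in *CD109+/+* skin and from 11 to 1 for its average, and the adjusted p of *Ces2e* was 0.0668 and 0.0759. Signs turned for *Sult2b1* after DMBA (-0.023 centred on the median), and for *Sult4a1* with the exchange (0.954 untreated, 0.587 on average) and without both arrays in doubt (0.645 and 0.433). Leaving out 1 array, in either arrangement, gave untreated genotype differences of -1.99 to 0.945 for *Ces2b*, -1.78 to 0.622 for *Ces2c*, -0.868 to 0.298 for *Ces2g*, -0.882 to 1.2 for *Sult4a1* and -1.74 to 0.737 for *Ugt8a*. On average over treatments it gave -1.18 to 0.441 for *Ces2b*, -1.03 to 0.124 for *Sult1a1*, -0.331 to 0.712 for *Sult4a1* and -0.809 to 0.172 for *Sult5a1*.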
